A study of Danio rerio with 4 samples.

Results

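Translation initiation and elongation factors are the proteins that bring the ribosome to a messenger RNA, place it on the start codon and then move it along the coding sequence. Their genes were taken by name, as every row of the deposited table whose symbol starts with eif or eef followed by a digit, leaving out the eIF2 kinase genes named eif2ak. This gave 65 of the 11021 genes in the table. The material was polyadenylated RNA from zebrafish livers taken at 5 days post fertilisation (dpf). The livers analysed carry Tg(fabp10:has.UHRF1-GFP) in the line marked High, in which the hepatocyte promoter of fabp10 drives human UHRF1 fused to GFP, so that other cells of the liver are not expected to express the transgene. UHRF1 brings the maintenance DNA methyltransferase to newly copied DNA. The control livers of the series carry Tg(fabp10:nls-mCherry), nuclear mCherry under the same promoter, at the same age. Each group has 2 libraries by the labels. The values here are those of A and B, the UHRF1-high libraries, and the 2 control libraries were not analysed here.

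No level below is therefore a change against the control, and no test between groups was made. The means carry the SD of the 2 libraries (n = 2), and a difference between A and B is a spread within 1 group. The labels name no clutch and no number of pooled animals for A or B, so this spread may be technical. The values were quantile-normalised by the authors, which makes the sets of values of both libraries almost the same, so that a value stands for a rank. Sequencing depth is unknown, and no counting interval can be given. No source states a division by transcript length. A rank, a percentile or a share of a summed value therefore includes any effect of length, and the order of different genes describes the deposited values, not their abundance per length. Differences are on the scale log2(value + 1), A minus B, which understates the difference of low genes. They were computed over the 8386 genes whose mean value reached 1 or more, and a gene is said to be past 2-fold when it reaches 2-fold on this scale.

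Initiation starts when eIF2 carries the initiator tRNA to the small ribosomal subunit, helped by eIF1, eIF1A, eIF3 and eIF5. The eIF4 factors bind the cap of the messenger RNA, unwind it and join it to that subunit. In elongation, eEF1A delivers aminoacyl-tRNAs, the eEF1B complex reloads eEF1A with GTP, and eEF2 moves the ribosome by a codon. The liver makes most plasma proteins, so its hepatocytes rely on these factors for a large secretory output.

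The labelled tissue was checked against markers. All 20 listed hepatocyte genes were measured, and their summed value was 261949 in A and 245994 in B. Of these, apoa1b, apoa2 and fabp10a had the same rank and so the same value in both, and the other 17 summed to 27907 in A and 11953 in B. Of the 17, 12 were higher in A and 5 in B (48.6% and 51.0% of all genes tested). The median difference over the 20 was 0.12, with the 3 equal genes counted at 0. Among the 20, 7 were at least 2-fold higher in A and 0 in B (7.07% and 6.83% of all genes tested). Of those 7, hpx, with 8.77 in A and 0.833 in B, reached a mean of 1 through A alone. The transferrin gene tfa, also among the 7, had 12758 in A and 2207 in B and makes up much of the sum of the 17. So some hepatocyte genes were unequal too. Genes of other cells were also present. The lowest value of the table was 0.0203 in A, shared by 694 genes, and 0 in B, shared by 449 genes. Exocrine pancreas markers, 18 of 24 listed genes, summed to 12079 in A and 1399 in B, with none at the lowest value of either library. Of the 18, 17 were higher in A (48.6% of all genes tested) and 1, ela2l, was higher in B with 4.02 and 36.4. Skeletal muscle markers, 36 of 40, summed to 533 in A and 4613 in B, with 6 genes at the lowest value in A and 1, ryr1b, in B. Skin markers, 21 of 23, summed to 406 and 996, with 2 genes at the lowest value in A and 1 in B. Of the 18 skin markers that passed the filter, 2 were higher in A and 16 in B (48.6% and 51.0% of all genes tested). Leukocyte markers, 14 of 18, summed to 48.3 and 165, and proliferation genes, 20 of 22, to 213 and 559, with none at the lowest value. Thus every difference between A and B below comes from libraries that also differ in these markers, and the part of the markers in it was not tested. In such bulk samples fewer cells of a type and less RNA per cell cannot be told apart.

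Few translation factor genes passed 2-fold between the libraries, while the typical size of their difference was close to that of all genes. None of the 64 members that passed the filter was at least 2-fold higher in A, where 7.07% of all genes tested were. A single one, eif4g2a, was at least 2-fold higher in B, where 6.83% of all genes were. Of the 64, 51 (79.7%) had values in A and B within 1.5-fold of each other, against 66.7% of all genes. There were 29 members higher in A and 34 higher in B (48.6% and 51.0% of all genes), and eef1a1l1 had the same value in both. The median difference was -0.02, next to -0.02 over all genes tested, and the median size of a difference was 1.27-fold, next to 1.31-fold. Among the 53 members with a mean of at least 10, the median size was 1.26-fold, next to 1.29-fold over all 3733 such genes. The lowest value of any of the 64 in a single library was 2.32, so none passed the filter through 1 library alone. The median level of the 65 members was 58.8 in A and 54.4 in B, at percentile 90.1 and 89.5 of the table. Of the 65, 62 lay above the median gene of both libraries, against 5016 of all 11021 genes.

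**Figure D1:**
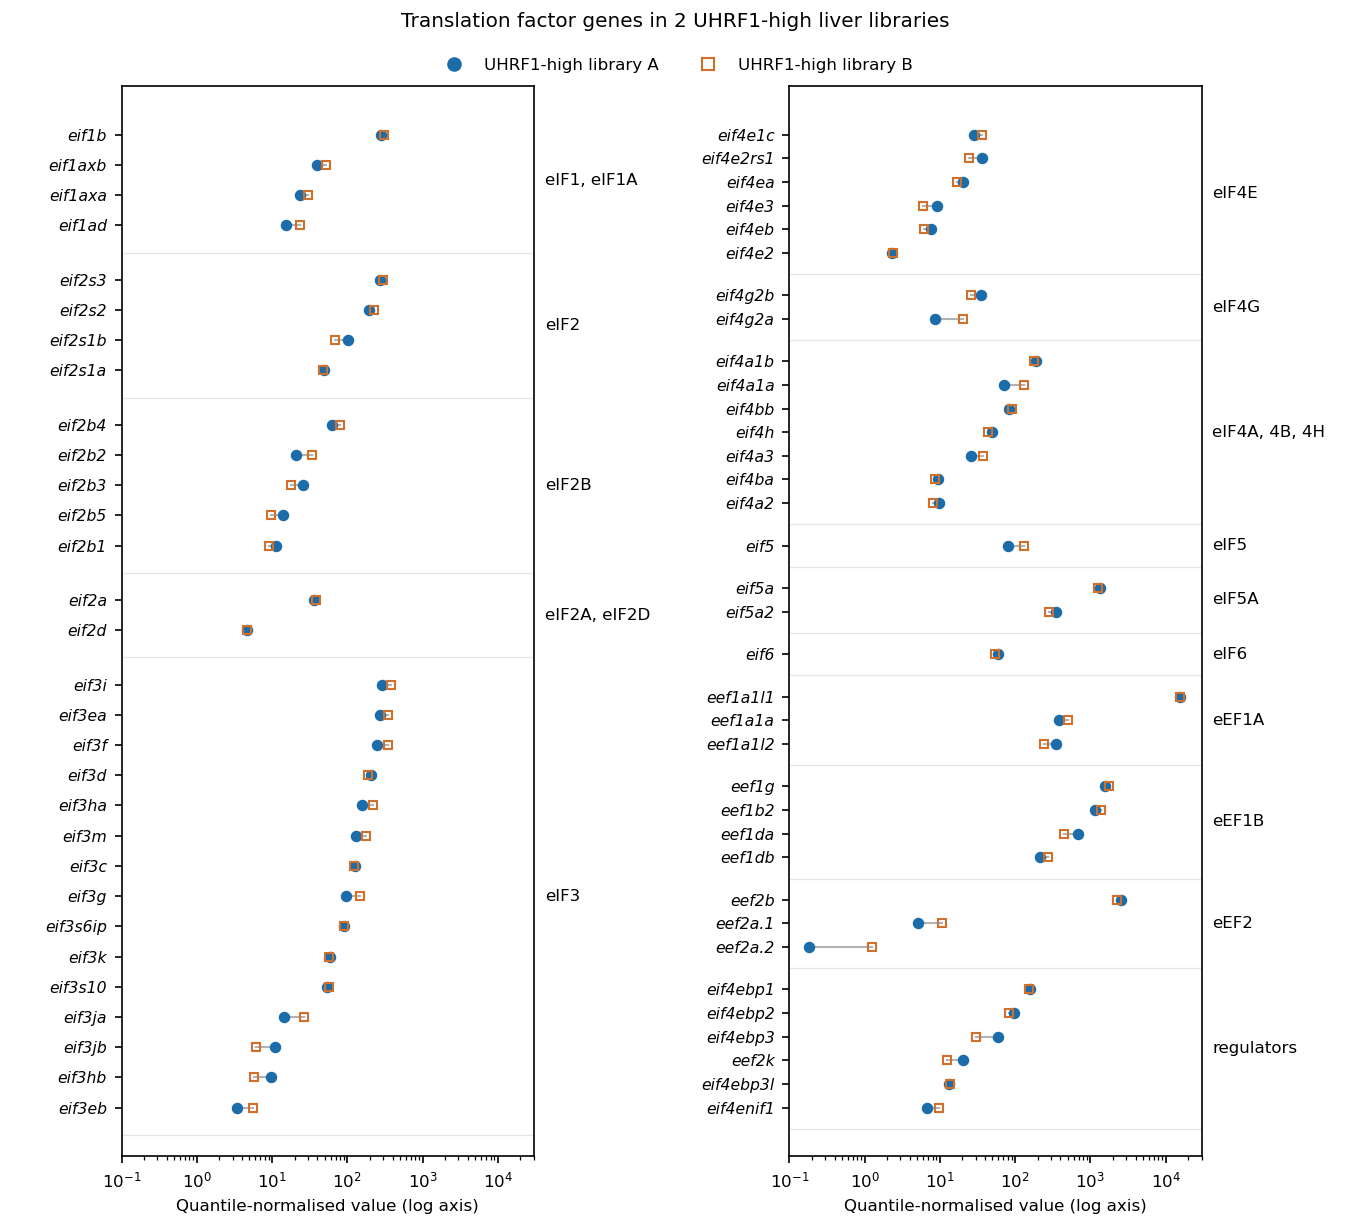
Quantile-normalised value (horizontal log axis) of each of the 65 translation factor genes in UHRF1-high library A (filled circles) and library B (open squares), grouped by factor; each point is 1 library and grey lines join the 2 values of a gene. The points of most genes nearly touch; the widest gap is that of eef2a.2, at 0.183 in A and 1.26 in B.

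**Figure D2:**
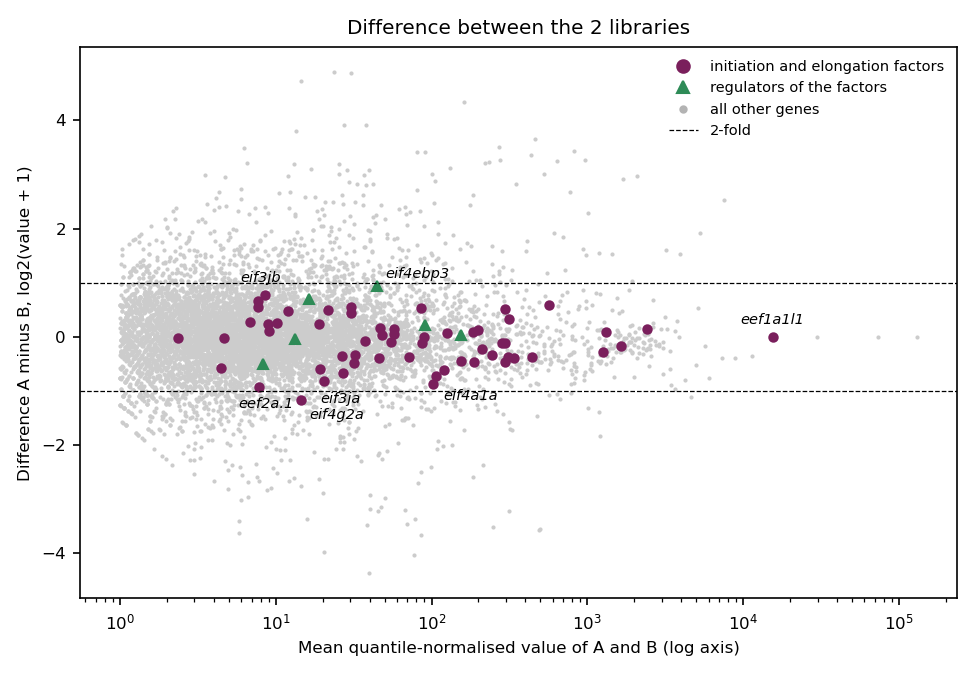
Difference between libraries, A minus B on log2(value + 1), against the mean value of A and B (log axis), for translation factors (purple circles), their regulators (green triangles) and all other genes with a mean of at least 1 (grey); dashed lines mark 2-fold. Of 64 members only eif4g2a, at -1.17, lies past a dashed line.

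The eEF1A genes encode the carrier of aminoacyl-tRNAs. The gene eef1a1l1 held rank 4 in both libraries, after genes of secreted and lipid-binding hepatocyte proteins, apoa1b, apoa2 and fabp10a. Its value of 15621 was the same in A and B, which quantile normalisation gives to any gene of equal rank, so its SD of 0 is no measure of precision. A neighbouring copy, eef1a1l2, had 346 in A and 243 in B (294 ± 73.0, difference 0.51). On Zv9, eef1a1l1 spans chr19:45287336-45290692 and eef1a1l2 chr19:45291670-45303237, with 977 bases between them. The third measured eEF1A gene, eef1a1a, went the other way with 386 in A and 500 in B (443 ± 80.8, difference -0.37). How reads shared by such copies were counted is not given in the sources used here, so the split of eEF1A signal among copies is uncertain.

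The eEF1B complex exchanges GDP for GTP on eEF1A, and the ranks of its 4 measured genes lay between 84 and 425 in both libraries. The gamma subunit gene eef1g had 1553 in A and 1757 in B, with a mean of 1655 ± 144. The gene eef1b2, whose product has exchange activity, had 1140 and 1381, with a mean of 1260 ± 171. Both were slightly higher in B. The delta subunit has a pair of genes that differed in opposite directions, eef1da with 679 in A and 450 in B and eef1db with 216 in A and 272 in B. Accordingly eef1da made up 75.9% of the summed value of the pair in A and 62.3% in B.

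Among genes for the translocase eEF2, eef2b ranked 40th in A and 52nd in B, with 2522 in A and 2294 in B (2408 ± 162, difference 0.14). The other measured eEF2 genes had small values. The gene eef2a.1 had 5.06 in A and 10.5 in B, a difference of -0.93 that came to 2.06-fold with a pseudocount of 0.1 and so passed the 2-fold line there. Next to it lies eef2a.2, with 0.183 in A and 1.26 in B, the only member under the filter, at ranks 9890 and 7885. They are neighbours on Zv9 at chr22:20453758-20461710 and chr22:20464664-20473264, with 2953 bases between. Both were higher in B, as were the summed skeletal muscle markers (533 in A, 4613 in B). The summed skin (406 and 996), leukocyte (48.3 and 165) and proliferation markers (213 and 559) were higher in B too. A link to any of these lists was not tested. No other members of the family lay within 100 kb of each other.

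The eIF5A genes encode a factor that helps ribosomes past difficult peptide bonds, and it works only after a lysine is turned into hypusine. The gene eif5a had 1359 in A and 1282 in B (1321 ± 54.4), and eif5a2 had 351 and 281 (316 ± 49.6). The values of both were slightly higher in A, and eif5a made up 79.5% of the sum in A and 82.0% in B. The enzymes that make hypusine went the other way. Deoxyhypusine synthase, dhps, had 3.18 in A and 8.09 in B, at least 2-fold higher in B with a difference of -1.12, and the hydroxylase dohh had 16.4 and 27.9 (-0.73). Spermidine donates the group that becomes hypusine, and the genes of its synthesis were higher in A. Ornithine decarboxylase, odc1, had 27.6 in A and 12.2 in B (1.12). Spermidine synthase, srm, had 11.7 and 4.94 (1.101), and amd1, which makes the aminopropyl donor, had 17.4 and 8.69 (0.93). The polyamine acetylating gene sat1a.1 had 73.0 in A and 14.5 in B (2.25), which was the widest difference of the list. Its paralog sat1b was close in both libraries, with 37.4 in A and 33.5 in B (0.16). Antizymes lower ornithine decarboxylase, and their measured genes went in opposite directions, oaz1a with 299.5 in A and 229 in B (0.39) and oaz2a with 130 and 289 (-1.14). In the list of genes for eIF5A and eEF2 modification and polyamines, 18 of 21 were measured and 17 passed the filter. Of those, 3 were at least 2-fold higher in A and 2 in B (7.07% and 6.83% of all genes), with a median difference of 0.04. The genes of the diphthamide pathway, which modifies eEF2, were low, such as dph1 with 6.96 and 10.3 and dph5 with 5.31 and 8.82. They had no common direction. While dph1 and dph5 were higher in B, dph2 was higher in A (difference 0.61), as was dnajc24 (0.94), which was under the filter. The gene dph7 was nearly equal (-0.03).

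The factors eIF1 and eIF1A act in start codon selection. The 4 measured genes grouped with them were all higher in B, by less than 2-fold each (background 51.0% higher in B). The eIF1 gene eif1b had 283 in A and 307 in B (295 ± 16.8). The eIF1A genes were eif1axb, with 39.7 and 52.5, and eif1axa, with 23.4 and 30.1, and eif1axa kept 37.0% of their sum in A and 36.5% in B. The gene eif1ad, grouped here only because its product has an eIF1A domain, had 15.1 and 23.3, the widest difference of the 4 at -0.59.

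The initiator tRNA carrier eIF2 has alpha, beta and gamma subunits. The gamma gene eif2s3, whose product binds GTP and the tRNA, had 275 in A and 296 in B (285 ± 15.1). The beta gene eif2s2 had 194 and 227 (210 ± 23.0). The alpha subunit, whose phosphorylation lowers initiation under stress, has a pair of genes. Of these eif2s1b had 101 in A and 69.3 in B (difference 0.54), while eif2s1a was nearly equal at 48.6 and 47.8.

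The exchange factor eIF2B reloads eIF2 with GTP, and all 5 of its subunit genes were measured. The regulatory subunit genes eif2b4 (61.8 in A, 80.8 in B) and eif2b2 (20.8 and 33.5) were higher in B. The regulatory subunit gene eif2b1 (11.2 and 9.23), the gamma gene eif2b3 (25.7 and 17.8) and the catalytic epsilon gene eif2b5 (14.1 and 9.83) were higher in A. The differences of this complex thus ran from -0.67 to 0.50, with no common direction. The alternative initiator tRNA factors hardly differed, eif2a with 36.5 and 38.3 and eif2d with 4.65 and 4.71.

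Among the genes that act on eIF2, the kinase gene eif2ak1 had 6.83 in A and 4.47 in B, and eif2ak2, listed at 0 in B, had 0.810 in A. In the fixed list of eIF2 kinases and the integrated stress response, 9 of 14 genes were measured and 8 passed the filter, with 6 higher in A (48.6% of all genes). Of the 6, 2 were past 2-fold (7.07% of all genes). Those 2 were chac1, a glutathione-degrading target of the stress factor ATF4, with 241 in A and 91.5 in B (1.39), and the gene listed as zgc:162126, with 29.3 and 9.997 (1.46). RefSeq names the latter ppp1r15a, a phosphatase subunit that restores eIF2. The ATF4 genes themselves were higher in B, atf4b1 with 112 and 191 and atf4b2 with 58.7 and 94.96. The list median was 0.38, over 8 genes.

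The eIF3 complex is the largest initiation factor and holds the small subunit, eIF2 and the cap complex together. It had 15 genes in the table. Of these, 8 were at least 1.2-fold higher in B, where 33.1% of all genes were, and 2 at least 1.2-fold higher in A, where 30.8% were. The other 5 lay within 1.2-fold. The summed value of the 15 genes was 1771 in A and 2181 in B, a ratio of 1.23, and the median difference was -0.37.

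The eIF3 genes with larger values formed a group that was higher in B and a group that was nearly equal. The gene eif3i had 290 in A and 383 in B (337 ± 65.7), eif3ea 271 and 350 (311 ± 55.7) and eif3f 249 and 346 (297 ± 68.7). In the same direction, eif3ha had 157 and 216, eif3m 131 and 179 and eif3g 94.98 and 146. These 6 differed by -0.37 to -0.62, and in each the value in B was 1.29 to 1.54 times that in A. Nearly equal were eif3c (128 and 123), eif3k (58.8 and 56.4), eif3s10 (53.0 and 56.9), which encodes the large subunit a, and eif3s6ip (89.8 and 90.0), which encodes subunit l. The gene eif3d, whose human product can itself bind caps, had 209 in A and 191 in B. Both groups hold subunits of the PCI/MPN core of the complex (e, f, h and m in the first, a, c, k and l in the second). The first group also holds i and g. Both groups were drawn after the values were seen, and a link to that core was not tested. The loosely bound subunit j and the second copies of e and h had small values. Here eif3ja had 14.6 and 26.4 (-0.81) and eif3jb 11.1 and 6.06 (0.78), while eif3hb had 9.67 and 5.73 and eif3eb 3.40 and 5.57. The summed proliferation genes were higher in B as well (213 in A, 559 in B), and so were the summed skeletal muscle, skin and leukocyte markers. A link to any of these lists was not tested.

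**Figure D3:**
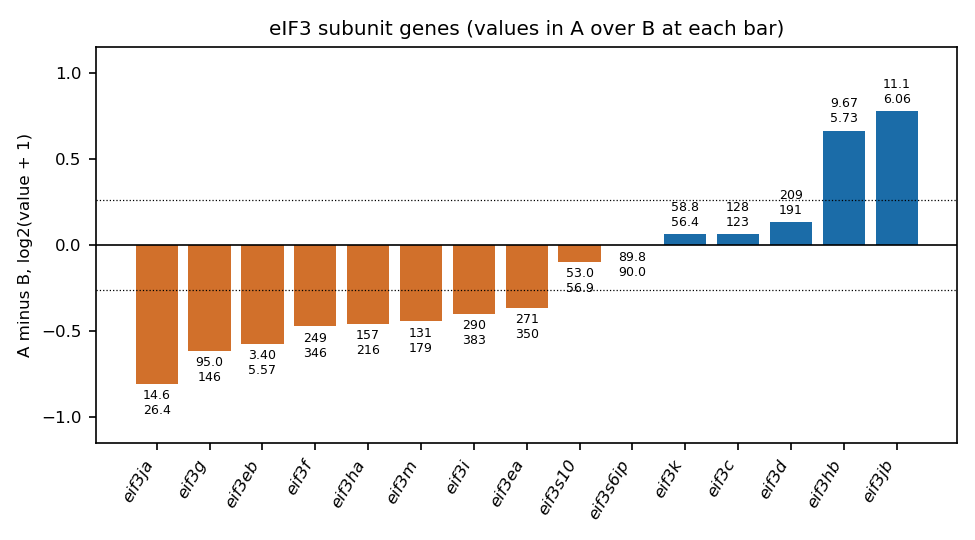
Difference between libraries, A minus B on log2(value + 1), for the 15 eIF3 subunit genes, with the values in A (upper) and B (lower) printed at each bar; orange bars are higher in B, blue bars in A, and dotted lines mark 1.2-fold. The bars of 8 genes pass the lower line, from eif3ea at -0.37 to eif3ja at -0.81, and the bars of eif3s10, eif3s6ip, eif3k, eif3c and eif3d stay between the lines.

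The cap-binding eIF4E family had 6 measured genes with values from 2.32 to 36.2. The gene eif4e1c had 28.3 in A and 35.9 in B, and eif4e2rs1 had 36.2 and 24.4. The classical eIF4E genes kept their proportion, eif4ea with 20.5 and 17.1 and eif4eb with 7.59 and 6.14, so that eif4ea made up 73.0% of their sum in A and 73.6% in B. The family member eif4e3 had 9.30 and 6.06. The mammalian counterpart of eif4e2 is a cap-binding repressor of translation. The gene eif4e2 itself was low in both libraries with 2.32 and 2.38, whereas eif4e2rs1, which shares its name, had the 36.2 and 24.4 given above.

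Scaffold genes of the eIF4G family were represented by the paralogs eif4g2a and eif4g2b. In mammals eIF4G2 lacks the eIF4E binding part of eIF4G1 and supports initiation without it. The gene eif4g2a had 8.59 in A and 20.6 in B (14.6 ± 8.51), and was the member with the largest difference among the 64, at -1.17 or 2.26-fold. Its paralog eif4g2b had 35.0 in A and 25.7 in B (30.4 ± 6.58), a difference of 0.43 in the other direction. Their summed value was 43.6 in A and 46.3 in B, so the sum hardly differed while the share of eif4g2a was 19.7% in A and 44.5% in B. On Zv9, eif4g2a spans chr7:67328031-67347852 and eif4g2b chr18:16375110-16385373. With a pseudocount of 10 no member passed 2-fold, eif4g2a included.

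The helicase eIF4A unwinds the leader of the messenger RNA. Its gene eif4a1b had 189 in A and 178 in B (183 ± 7.97), while eif4a1a had 71.7 and 131 (102 ± 42.3, difference -0.87). The gene eif4a1a thus made up 27.5% of the pair in A and 42.5% in B. The gene eif4a2 had 9.70 and 8.06, and eif4a3, whose product sits in the exon junction complex, had 26.3 and 37.0. The helicase partners were close in both libraries, eif4bb with 83.9 and 90.3, eif4ba with 9.37 and 8.61 and eif4h with 49.3 and 43.8. For subunit joining, the eIF2 GTPase activator gene eif5 had 79.6 in A and 133 in B (106 ± 37.7, difference -0.73). The gene eif6, whose product keeps the large subunit from joining too early, had 60.04 and 54.4.

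Across the 10 pairs of duplicated genes with endings a and b, 6 pairs had members that differed in opposite directions and 4 in the same direction. These directions had no threshold, so nearly equal genes such as eif2s1a were counted too. Of all genes tested, 48.6% were higher in A and 51.0% in B, which are shares of genes and not of pairs. The ratio of the first copy to the second differed between the libraries by more than 1.5-fold in 5 pairs and by less in the other 5. This ratio was 3.31 times as high in B as in A for eif3ja to eif3jb, 3.27 times for eif4g2a to eif4g2b, 2.32 times for eif3ha to eif3hb and 1.95 times for eif4a1a to eif4a1b. For eef1da to eef1db it was 0.525 times as high in B. A constant difference in length between the copies would cancel in such a comparison before quantile normalisation. After it a value stands for a rank, so the difference in length may not cancel fully. A share in percent, such as the 56.8% in A and 81.3% in B of eif3ja, includes it. Each share rests on 1 library, and a read that could belong to both copies would move it. The counts of pairs were not compared with pairs of other genes, so they are not read as a trait of duplicated genes.

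**Figure D4:**
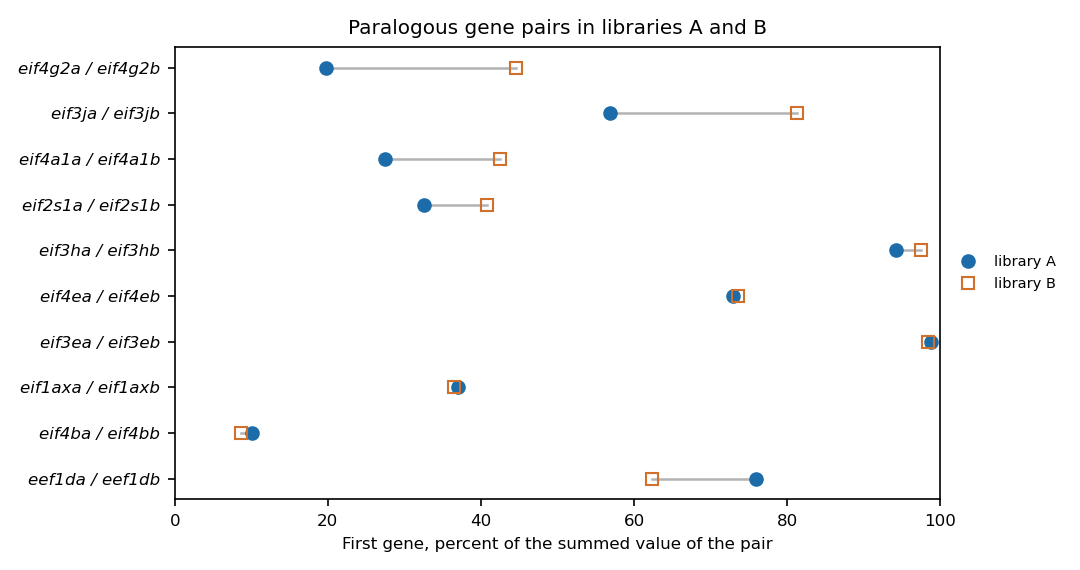
Share of the first named gene in the summed value of each of 10 paralogous pairs (horizontal axis, percent), in library A (filled circles) and library B (open squares), 1 point per library. The pairs eif4g2, eif3j, eif4a1 and eef1d show gaps of over 10 percentage points, and the points of eif4e, eif3e and eif1ax almost coincide.

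Regulators of the factors made up 6 of the 65 members. The eIF4E binding proteins block cap-dependent initiation when they are not phosphorylated by the TOR kinase complex. The gene eif4ebp1 had 156 in A and 154 in B (155 ± 1.90), and eif4ebp2 had 97.5 and 83.2 (90.3 ± 10.1). The gene eif4ebp3 had 59.0 in A and 30.4 in B (44.7 ± 20.2). Its difference of 0.94 was the largest towards A among the 64 members, and remained under 2-fold. The related eif4ebp3l was nearly equal at 13.1 and 13.5. The kinase that inhibits eEF2, eef2k, had 20.5 in A and 12.3 in B (0.69), and eif4enif1, whose product shuttles eIF4E, had 6.66 and 9.87.

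In the list of TOR pathway and cap-dependent regulators, 13 of 24 genes were measured and 12 passed the filter. Of these, 10 were higher in A (48.6% of all genes), 2 of which were past 2-fold (7.07%), and none was 2-fold higher in B (6.83%). The median difference was 0.27. The 2 genes were mknk2b, a kinase of eIF4E, with 24.1 in A and 9.45 in B (1.26), and the TOR inhibitor gene deptor, with 5.43 and 1.67 (1.27). The kinase gene mtor itself had 3.24 and 2.08, and the ribosomal protein gene rps6, a substrate of the pathway, had 3139 and 2826. The gene pdcd4a, whose mammalian counterpart inhibits eIF4A, had 38.1 and 31.4. The summed values of exocrine pancreas markers (12079 in A, 1399 in B) and of the 17 hepatocyte markers with unequal values (27907 and 11953) lay in the same direction. Of those 17, 12 were higher in A and 5 in B. A link to either list was not tested.

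The partners of the factors at other steps differed mostly by small amounts. Of the poly(A) binding and scaffold list, 12 of 19 genes were measured, 9 higher in B and 3 in A (51.0% and 48.6% of all genes), with a median of -0.23. The poly(A) binding protein gene pabpc1a had 619 in A and 836 in B (727 ± 154), and the messenger RNA packaging gene ybx1 had 1528 and 1492. Of the 12, 1 was past 2-fold, pabpc4, higher in B at 3.55 and 8.85 (6.83% of all genes). Termination and recycling genes, 7 of 7 measured and 6 above the filter, had a median of -0.10 and none past 2-fold (7.07% of all genes in A, 6.83% in B). The release factor gene gspt1l had 98.2 and 111, etf1 52.6 and 64.9, and the recycling gene abce1 42.6 and 40.0. Of genes linked to eIF6 release, 3 of 5 were measured, 2 above the filter, with gnb2l1 (also called rack1) at 2776 and 2461 and sbds at 9.96 and 8.53, and a median of 0.19.

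Aminoacyl-tRNA synthetase genes, whose products load tRNAs, had 19 of 29 listed genes measured. There were 14 higher in B and 5 in A (51.0% and 48.6% of all genes), with a median of -0.14. The highest values were those of kars (108 in A, 98.0 in B) and dars (77.2 and 85.3). Of the 19, 1 was past 2-fold, higher in B (6.83% of all genes). It was zgc:101853, a scaffold gene that RefSeq names aimp1b, with 0.487 and 5.02. Its value in A lay under 1, so it passed the filter through library B alone. Mitochondrial translation factors, 7 of 11 measured, were higher in A in 6 cases (48.6% of all genes) with a median of 0.14. Their elongation factor gene tufm had 68.5 and 64.1. Of the 7, 1 was past 2-fold, the recycling factor gene gfm2, higher in A with 6.96 and 2.51 (7.07% of all genes). The exchange factor gene tsfm, at 23.4 and 11.2, lay just under 2-fold.

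**Figure D5:**
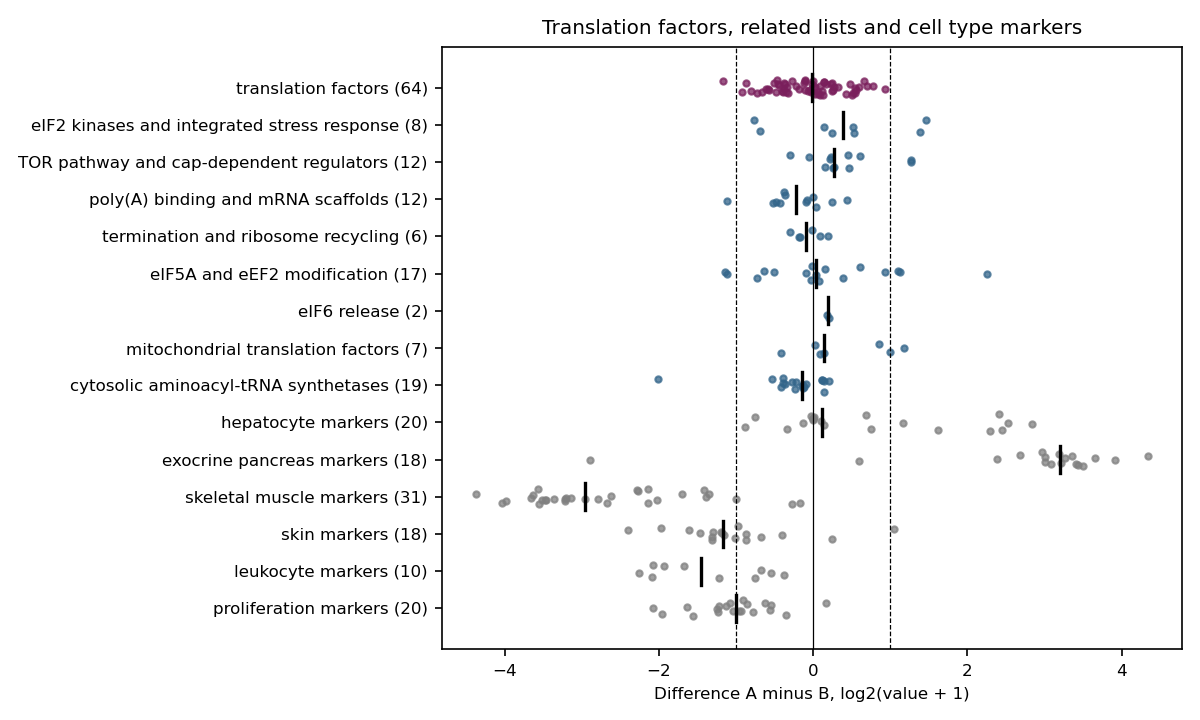
Difference between libraries, A minus B on log2(value + 1), for translation factors (purple), 8 lists of related genes (blue) and 6 lists of cell type or proliferation markers (grey); each point is a gene, the number of genes that passed the filter is in brackets, black bars are medians and dashed lines mark 2-fold. Translation factors lie between -1.17 and 0.94. The medians of exocrine pancreas (3.20), skeletal muscle (-2.95), skin (-1.16), leukocyte (-1.45) and proliferation markers (-1.005) lie past the dashed lines. That of hepatocyte markers (0.12), in which 3 genes with equal values count at 0, does not. Some markers had a value under 1 in 1 library and passed the filter through the other alone. Examples are ckmt2 of muscle (0.0203 in A, 11.7 in B) and c6ast3 of exocrine pancreas (12.4 in A, 0.183 in B).

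The members were spread over 22 chromosomes. Their genomic spans had a median of 12770 bases, next to 12727 over all genes tested, and the rank correlation of span with the difference between libraries was 0.12 over the 64 members and 0.09 over all 8386 genes. Those correlations describe genes of the same 2 libraries. RefSeq lists 81 protein-coding symbols that the same name rule takes, of which 65 are in the table. The other 16, among them eif1, eif3ba, eif4g1a, eif4g1b, eif5b and eef1a2, were not analysed here.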

How the data were processed

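Polyadenylated RNA was sequenced, per the labels' protocols, after Trizol extraction and chemical fragmentation; the design text of the series names small RNA instead. The signal values were deposited after quantile normalisation by the authors, which the table names in its title. The genome build and software, per the submitters' processing notes, were Zv9 (danRer7) and CASAVA 1.7. How reads were counted, on which annotation, in what unit before normalisation and with what gene filter is not given in the sources used here. The columns end in "mult", which no source explains.

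Both value columns were matched by name to the sample titles, and 0 per-sample columns were left unused. The planned limma fit against the mCherry libraries could not be run without their columns. Starts were counted from 1 by adding 1 to the deposited start. Symbols were matched to the RefSeq table of GRCz12tu for names only; all 65 members matched. Differences used log2(value + 1) for genes with a mean of at least 1, and 2-fold as the call. The calculation was tested on simulated data with the levels of genes with a mean of at least 10, so lower genes were not covered. Every member may be named; in each factor the highest values and members past 2-fold were, and in other lists the highest 2 and those past 2-fold, while further genes of those lists were chosen after their values were seen, as were the 1.2-fold line and the gene pairs. Members and lists were chosen with earlier results of these data known. Python 3.11.15, numpy 2.4.6, pandas 2.3.3 and matplotlib 3.10.9 were used.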

Additional observations from a re-analysis of the deposited data

How the results depend on the processing

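The counts at least 2-fold higher in A stayed at 0 under every pseudocount, filter and scaling tried. In B the count was 1, 2 with a pseudocount of 0.1 (eif4g2a and eef2a.1) and 0 with a pseudocount of 10, where all genes also passed 2-fold less often (1.598% in B, against 10.2% with 0.1). The median difference of -0.02 was -0.069 with a filter at a mean of 10, next to -0.040 over all genes that passed it. Without the 6 regulators the median difference was -0.048. Both rest on fewer members. The median level of 54.9 was 54.4 without library A and 58.8 without library B. For other counts the alternatives were chosen after seeing the data. Counts within 1.5-fold (43 to 60), higher in A (23 to 31) and higher in B (29 to 35) stayed within 1.5 times the values given. So did that of eIF3 genes 1.2-fold higher in B (7 to 8). The 43 was of 53 members with a mean of at least 10 (81.1%), against 67.5% of all such genes. The 60 came with a pseudocount of 10, where the share of all genes within 1.5-fold was not computed. These ranges are therefore not read as a trait of the members. Dividing each library by its median turned the sign of 1 member, eif3s6ip, from -0.0036 to 0.0098. No paired analysis was possible because the values of 1 group only were analysed. Values near the bottom of the table, such as those of eef2a.2, are limited by a depth that is unknown.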
